A study of Homo sapiens with 18 samples.

Results

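The genes described here are antisense long non-coding RNA genes. They were chosen by their names and their level, as the genes whose symbol ends in -AS and a number and whose mean normalized count reached 100. This gave 131 genes of the 498 listed with such a symbol, and of 21944 genes listed in all. The level that chose them is the authors' deposited mean over all samples of the number of reads per gene after scaling by DESeq2 size factors, and it is given below as a description. All 131 genes are listed at all 3 time points. The antisense genes just above the limit were *TTN-AS1* (mean normalized count 105.6), *IDI2-AS1* (103.9) and *ITGB8-AS1* (100.02), and those just below it were *ZNF516-AS1* (97.1), *CBR3-AS1* (96.6) and *UBAC2-AS1* (96.3), so that the limit falls within a continuous range of levels.

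An antisense gene is transcribed from the strand opposite to another gene, and by convention it is named after that gene, referred to here as its partner. Some antisense transcripts start beside the promoter of the partner and run away from it or into it, others meet it at its 3' end, and others lie inside its introns. Single antisense transcripts are known to act on the partner, on chromatin or on microRNAs, while for most of them no function has been established.

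The study compared pancreatic progenitors derived from human embryonic stem cells after reseeding on LN411, a laminin isoform, or on fibronectin (FN). Cells at day 19 of differentiation stayed on the matrix for 3, 6 or 24 h before harvest, and there were 3 samples each of FN 3 h, FN 6 h, FN 24 h, LN411 3 h, LN411 6 h and LN411 24 h, or 18 samples in 6 groups. All samples were of one cell source, which the labels name both as HUES4 and as NGN3-GFP cells made from the SA121 line, with no other genetic change or agent given. The paper describes the sequenced progenitors as derived from NGN3-GFP cells. RNA was selected by its poly(A) tail. The columns that hold the authors' own comparison of LN411 with FN were not used here, and values of single samples were not analysed. No difference between matrices or times is therefore given, the levels carry no standard deviation, and the depth of each library is unknown.

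Markers of the labelled cell type were present in the authors' mean, with normalized counts of 12933 for *PDX1*, 20672 for *SOX9*, 3040 for *NKX6-1* and 5206 for *GATA6*, but 12.5 for *PTF1A*. Of the pluripotency genes looked at, *POU5F1* and *NANOG* are not listed and *SOX2* had 9.44, but *LIN28A* had 10333. Among genes of neighbouring endoderm, *AFP* had 26676, *VIL1* 20185, *APOA1* 13608 and *CDX2* 3556, but *ALB* had 640. Mesenchyme genes were also found, with 4091 for *COL1A1*, 320 for *COL3A1*, 235 for *LUM* and 114 for *PDGFRB*. Of the endocrine genes, *CHGA* stood at 4312, *SST* at 581, *NEUROG3* at 451, *GCG* at 16.3 and *INS* at 8.32. A bulk mean of this kind cannot tell fewer cells with a transcript from less of it in each cell, and how far each cell type adds to the antisense levels was not tested.

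The level of the 131 genes spanned from 100.02 to 10030, with a median of 225 and quartiles of 139 and 423. Between 100 and 200 there were 54 genes, between 200 and 500 there were 49, between 500 and 1000 there were 16, and 12 genes had at least 1000. Together the 131 genes made up 0.136% of the summed mean normalized counts of all listed genes. The first 2 genes held 26.5% of the antisense total and the first 10 held 50.3%, so that the sum rests on few genes. Over all listed genes, 59.8% reached a mean normalized count of 100, against 26.3% of the antisense genes.

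**Figure D1:**
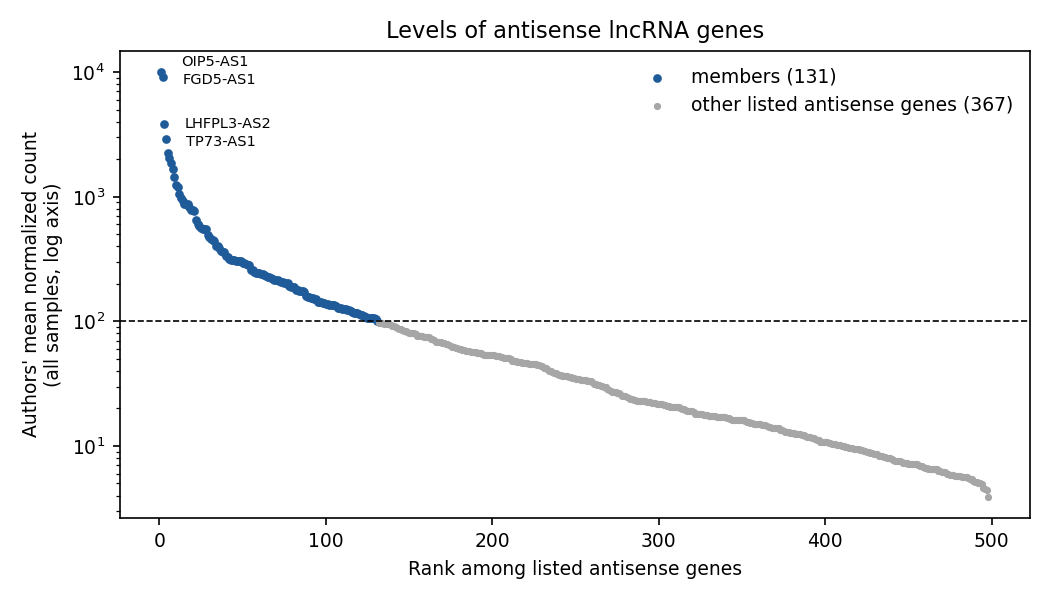
The authors' mean normalized count over all samples (vertical log axis) of each of the 498 listed antisense genes, in order of level. Blue points are the 131 genes at or above the dashed line at 100, grey points the 367 below it, and *OIP5-AS1* and *FGD5-AS1* stand above all others at 10030 and 9064.

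The most abundant antisense gene was *OIP5-AS1* (chromosome 15 of GRCh38, 41283958 to 41322392, plus strand), the human counterpart of the conserved non-coding RNA Cyrano, with a mean normalized count of 10030. It was followed by *FGD5-AS1* (chromosome 3, 14920347 to 14948424, minus strand) with 9064, *LHFPL3-AS2* (chromosome 7, 104894628 to 104926645, minus strand) with 3804 and *TP73-AS1* (chromosome 1, 3735511 to 3747373, minus strand) with 2919. Among all listed genes, *OIP5-AS1* ranked 989th and *FGD5-AS1* 1133rd by this count. *SLC44A3-AS1* (2251), *THAP9-AS1* (2029), *PSMA3-AS1* (1878), *OTUD6B-AS1* (1662), *THUMPD3-AS1* (1434), *MAGI2-AS3* (1242), *MRPL20-AS1* (1205) and *ZNF667-AS1* (1058) completed the 12 genes with at least 1000. The next in order were *SOX21-AS1* (973), *HERPUD2-AS1* (924) and *KLRK1-AS1* (881). GENCODE annotates 129 of the 131 genes as lncRNA, while *TP73-AS1* is annotated as a unitary pseudogene and *SLC44A3-AS1* as a processed pseudogene, a class that can share reads with the gene it was copied from.

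Levels of different genes were compared per kb of annotated exon, the union of all exons of a gene. On this scale the median of the 131 genes was 48.5 normalized counts per kb, from 4.14 for *TTN-AS1* to 1602 for *LHFPL3-AS2*. *FGD5-AS1* came next with 1499 per kb, and then *MNX1-AS2* (478), *MRPL20-AS1* (476), *THAP9-AS1* (461), *OIP5-AS1* (448), *TP73-AS1* (301) and *GATA6-AS1* (268). The order differs from that of the counts because exon lengths run from 374 bases in *MNX1-AS2* to 25511 in *TTN-AS1*, with a median of 4675. *OIP5-AS1* has 22370 annotated exon bases spread over many transcripts, and per kb of its longest transcript it stood at 1129, against 2374 for *FGD5-AS1* and 2076 for *LHFPL3-AS2*. The transcript with the most exons had a median of 4 exons over the genes, and 10 genes had single exons only, among them *HERPUD2-AS1*, *FBXL19-AS1* and *ZBTB11-AS1*.

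The antisense genes were close in level to other long non-coding genes and far below protein-coding genes. Among genes that reached a mean normalized count of 100, the median per kb was 48.5 for the antisense genes, 50.2 for the 54 genes named as divergent transcripts (symbols ending in -DT), 52.0 for the 58 genes with LINC symbols and 308 for 12133 protein-coding genes. The quartiles of the antisense genes, 32.2 and 116, overlap those of the divergent transcripts, 29.2 and 69.8, and of the LINC genes, 27.8 and 127. Of the listed genes, 29.3% of the divergent transcripts, 17.7% of the LINC genes and 79.0% of the protein-coding genes reached 100. The share of exon bases that overlap exons of other genes had a median of 6.69% in the antisense genes, against 0.0177% for the divergent transcripts and 0.0633% for the LINC genes. These are descriptions of levels that also chose the genes, and no test was made between the classes.

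The partner, the gene whose symbol precedes -AS, is listed for 127 of the 131 genes, and all 127 are pairs with a protein-coding gene. These pairs have 126 distinct partners, since *MNX1* has both *MNX1-AS1* and *MNX1-AS2*. *NUTM2B-AS1*, *C10orf95-AS1*, *NINJ2-AS1* and *IDI2-AS1* have no listed partner. Partners had a median mean normalized count of 1956, with 6.22 for *PAX8* as the lowest, 83 partners at 1000 or more and 11 below 100. The antisense gene was usually the lower of the pair. Per kb of exon, the partner exceeded the antisense gene by a median of 5.06-fold, with quartiles of 1.55 and 15.2. This median moves with the limit on the antisense count, to 3.26-fold with a limit of 200 and 7.43-fold with a limit of 50. The partner stood between 1 and 10 times the antisense level in 62 pairs, between 10 and 100 times in 40 and at over 100 times in 4, and in 21 pairs, 16.5% of all, the antisense gene was the higher. These ratios depend on the length used. Per kb of longest transcript, 50 pairs moved by over 1.5-fold and 6 changed direction, among them *ITGA9-AS1*, *OTUD6B-AS1* and *C8orf34-AS1*, and per kb of exon not shared with other genes, 9 moved that far and 2 changed direction.

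The relation between the level of an antisense gene and that of its partner varied with the length used. Across the 127 pairs, Spearman's rank correlation between both levels per kb of exon was -0.0032, a description across genes measured in the same libraries. It was -0.15 per kb of longest transcript and -0.24 without division by length. Antisense genes under the limit of 100 had partners of similar abundance, with a median mean normalized count of 1890 for the partners of 346 such genes against 1956 for the partners of the 127. A partner at 100 or more was found for 89.0% of the former and 91.3% of the latter.

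**Figure D2:**
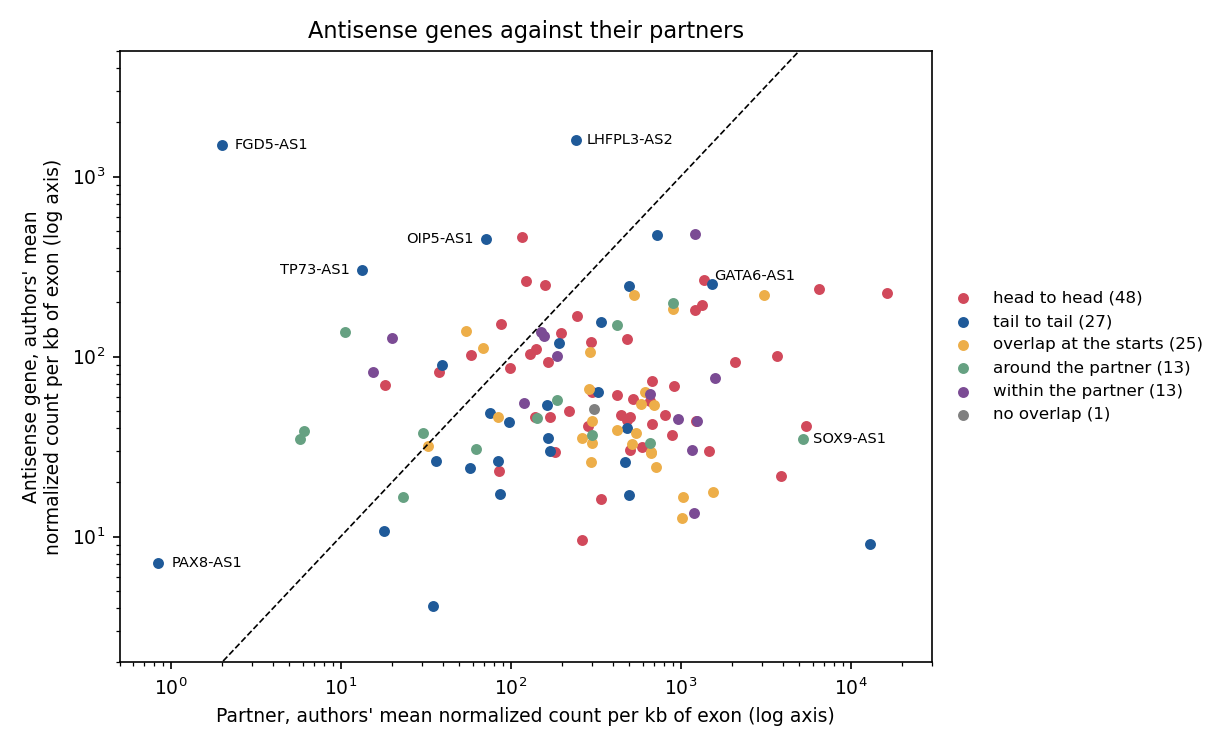
Level of each antisense gene (vertical log axis) against that of its partner (horizontal log axis), both as the authors' mean normalized count per kb of exon over all samples. Each of the 127 points is a pair coloured by its arrangement in the genome, the dashed line marks equal levels, and the 21 pairs above it include *FGD5-AS1*, *TP73-AS1* and *OIP5-AS1*.

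In 10 of the 21 pairs led by the antisense gene the partner had a mean normalized count below 100, and in 2 it had 1000 or more. Every antisense gene had at least 100 by choice, so a partner below 100 always has the lower count. *FGD5-AS1* had 1499 normalized counts per kb and its partner *FGD5*, which encodes a guanine nucleotide exchange factor known from endothelium, had 1.99, a ratio of 752. The mean normalized count of *FGD5* was only 16.1. *TP73-AS1* had 301 per kb against 13.3 for *TP73*, a member of the p53 family, a ratio of 22.6. *KLRK1-AS1* (137 per kb) exceeded *KLRK1*, which encodes a receptor of natural killer cells, by 12.8-fold, and *PAX8-AS1* exceeded *PAX8*, a thyroid and kidney transcription factor, by 8.48-fold, although the level of *PAX8-AS1* itself was only 7.16 per kb. The next ratios were 6.58 for *LHFPL3-AS2*, 6.37 for *FGF14-AS2*, 6.31 for *GPRC5D-AS1*, 6.25 for *OIP5-AS1*, 6.00 for *NUTM2A-AS1* and 5.25 for *TSPEAR-AS1*. *GPRC5D* had a mean normalized count of only 8.21. The order of these ratios rests on the length used. On exon bases shared with no other gene the ratio of *KLRK1-AS1* was 5.68, and per kb of longest transcript those of *OIP5-AS1* and *NUTM2A-AS1* were 15.7 and 18.3. *OIP5*, a centromere protein gene, had a mean normalized count of 86.1. Of its 1201 exon bases, 759 are shared with exons of *OIP5-AS1*. Too few of its exon bases are free of other genes for a ratio on unshared bases. If reads were counted without regard to strand, those on the shared bases could be left uncounted. The count of *OIP5* and both ratios of this pair are therefore uncertain. *NUTM2A-AS1* (835) and *NUTM2B-AS1* (555) both lie on chromosome 10. How alike their sequences are was not tested. Reads that fit both genes may be lost or misplaced, so that both values are uncertain. Of the 21 pairs, *THAP9-AS1*, *MAGI2-AS3*, *ZNF674-AS1*, *TRIM52-AS1*, *C8orf34-AS1*, *ZNF793-AS1* and *MAPKAPK5-AS1* were the 7 in which both genes start within 1000 bases of each other.

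At the other end, the partner was a highly expressed gene. *SRRM2*, a splicing factor gene with a mean normalized count of 50241, exceeded *SRRM2-AS1* by 177-fold per kb. *SOX9* exceeded *SOX9-AS1* by 152-fold, or by 42.9-fold per kb of longest transcript, and *HMGN3*, which encodes a nucleosome-binding protein, exceeded *HMGN3-AS1* by 133-fold. *SCOC* exceeded *SCOC-AS1* by 89.5-fold. The library kit named in the labels and in the paper, NEBNext Ultra II RNA, carries no mention of its directional version, and the use of strand in counting is not given in the sources used here. Without strand, reads from a gene and its antisense partner cannot be told apart where both are annotated, and such reads can be left uncounted.

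How far this can reach was measured from the annotation. Exon bases were shared with the partner in 95 of the 127 pairs, with a median of 6.53% of the antisense gene's exon bases in those pairs. Bases shared with exons of any gene were absent in 21 of the 131 genes and over 25% in 18, with 55.1% in *TTN-AS1*, 50.2% in *RNF157-AS1* and 47.2% in *THAP7-AS1*. Exons also lay opposite introns of the partner, where unspliced partner RNA could be counted for the antisense gene if strand was not used. A median of 20.3% of the antisense exon bases fell within the partner's span, all of them in 13 pairs and none in 13 others. In the 13 pairs with none the median partner excess was 6.70-fold, against 5.06-fold in all pairs, and in the 32 pairs that share no exon base it was 6.03-fold.

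By the positions of their gene ends in GENCODE, the 127 pairs fell into several arrangements. Head to head, with starts on opposite strands and within 1000 bases of each other, were 48 pairs (37.8%). A further 25 pairs (19.7%) overlapped at their starts over a longer distance. The split between these groups rests on the limit, since with starts within 500 bases they held 29 and 44 pairs. Of the others, 27 (21.3%) met tail to tail, and in 13 (10.2%) the antisense gene spanned the whole partner. Another 13 antisense genes lay within the partner, 7 with shared exons and 6 in introns only. The remaining gene, *LYRM4-AS1*, did not overlap its partner. Among the 346 pairs of antisense genes below the limit, 82 (23.7%) were head to head and 107 (30.9%) lay within the partner, against 10.2% of the 127 pairs. Arrangement was not part of the rule that chose the genes, but the count was. If strand was not used, overlap with the partner can change that count, so arrangement and choice are not independent. How far this moved these shares was not tested, and no test of the shares was made.

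**Figure D3:**
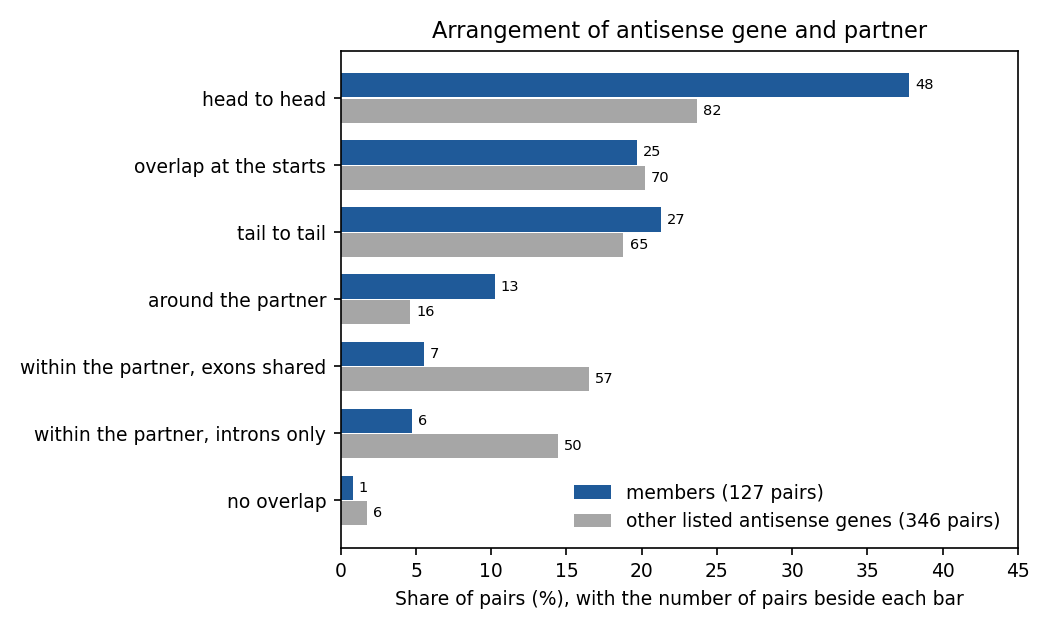
Share of pairs (horizontal axis, %) in each arrangement of antisense gene and partner, for the 127 pairs whose antisense gene reached 100 (blue) and the 346 pairs below it (grey). Numbers beside the bars count pairs, and head to head is the longest blue bar, with 48 pairs.

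Antisense genes that start head to head with the partner had a median of 66.2 normalized counts per kb, from 9.58 to 461, against 43.2 in tail-to-tail pairs, 39.2 in pairs overlapping at their starts and 37.6 where the antisense gene spans the partner. The medians were above it for the antisense genes within the partner, at 94.4 for the 6 in introns only and 76.5 for the 7 with shared exons. Partners had a median of 434 per kb in head-to-head pairs, 164 in tail-to-tail pairs, 534 in pairs overlapping at their starts and 814 where the antisense gene lies in introns only. The partner excess was a median of 6.93-fold in head-to-head pairs and 2.28-fold in tail-to-tail pairs, with wide quartiles of 1.70 and 17.6 for the former and 1.46 and 5.42 for the latter, which overlap. In pairs overlapping at their starts it was 10.7-fold. In head-to-head pairs, the gene starts were a median of 376 bases apart. In 38 of the 48 pairs the antisense start lay inside the partner, so that the first stretches of both genes overlap, and in 10 the starts pointed away from each other across a gap.

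The start regions of 5 of the most abundant head-to-head antisense genes are shown. Each window runs from 250 bases before to 50 after the RefSeq start of the antisense gene (GRCh38.p14), 5' to 3' on its own strand. Of the 5 partners, only *ZNF528* has its annotated start inside the window. RefSeq starts can differ from the GENCODE starts that set the arrangement. The GENCODE start of *GATA6-AS1* (22169878), for example, lies outside its window. Capitals mark GGGCGG and CCAAT, the letters known as the GC box and the CCAAT box, or their reverse complements CCGCCC and ATTGG. The windows are those of *THAP9-AS1* (chr4:82900867-82901166, minus strand), *MAGI2-AS3* (chr7:79452707-79453006, plus strand), *ZNF667-AS1* (chr19:56477624-56477923, plus strand), *GATA6-AS1* (chr18:22168919-22169218, minus strand) and *ZNF528-AS1* (chr19:52397708-52398007, minus strand).
THAP9-AS1: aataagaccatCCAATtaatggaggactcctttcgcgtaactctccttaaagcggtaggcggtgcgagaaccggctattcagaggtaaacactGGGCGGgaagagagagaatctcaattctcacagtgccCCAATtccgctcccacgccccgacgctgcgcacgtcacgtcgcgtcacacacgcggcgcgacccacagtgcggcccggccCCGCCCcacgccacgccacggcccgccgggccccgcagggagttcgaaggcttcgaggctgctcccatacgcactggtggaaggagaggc
MAGI2-AS3: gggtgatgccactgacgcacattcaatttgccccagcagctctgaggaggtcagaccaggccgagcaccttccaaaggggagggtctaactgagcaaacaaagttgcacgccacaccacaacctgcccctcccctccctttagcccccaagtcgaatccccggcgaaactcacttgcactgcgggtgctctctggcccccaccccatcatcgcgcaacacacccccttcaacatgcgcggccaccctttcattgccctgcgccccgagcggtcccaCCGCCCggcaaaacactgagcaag
ZNF667-AS1: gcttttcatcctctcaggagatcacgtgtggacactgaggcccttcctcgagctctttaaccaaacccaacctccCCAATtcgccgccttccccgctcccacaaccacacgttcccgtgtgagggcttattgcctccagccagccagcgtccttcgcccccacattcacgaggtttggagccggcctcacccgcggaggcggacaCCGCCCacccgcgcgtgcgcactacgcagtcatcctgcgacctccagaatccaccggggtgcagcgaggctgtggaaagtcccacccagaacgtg
GATA6-AS1: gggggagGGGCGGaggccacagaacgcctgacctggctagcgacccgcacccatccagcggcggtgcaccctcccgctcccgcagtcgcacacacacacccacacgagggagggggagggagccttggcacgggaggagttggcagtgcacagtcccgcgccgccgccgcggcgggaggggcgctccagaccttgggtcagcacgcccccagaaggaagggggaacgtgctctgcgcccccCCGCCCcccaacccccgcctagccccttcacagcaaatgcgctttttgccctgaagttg
ZNF528-AS1: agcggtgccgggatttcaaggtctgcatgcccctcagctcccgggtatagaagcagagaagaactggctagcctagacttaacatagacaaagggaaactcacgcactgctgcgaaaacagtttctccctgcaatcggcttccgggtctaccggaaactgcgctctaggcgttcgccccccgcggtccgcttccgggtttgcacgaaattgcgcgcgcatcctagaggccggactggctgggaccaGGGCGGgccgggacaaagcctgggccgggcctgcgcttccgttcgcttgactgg

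The window of *THAP9-AS1* (mean normalized count 2029, partner *THAP9* at 506) has 32 CpG dinucleotides in its 300 bases. In the window of *ZNF528-AS1* (785, partner *ZNF528* at 1691), the annotated start of *ZNF528* lies 92 bases upstream of the antisense start, so that both starts fall within the printed stretch. The start of *GATA6* lies 621 bases upstream of the RefSeq start of *GATA6-AS1*, outside its window, which has a GC content of 71.3%. Of the 131 genes, 105 matched a RefSeq promoter window. The ratio of observed to expected CpG, a measure of CpG islands, was at least 0.6 in 84 of the 105 (80.0%), in 36 of 39 head-to-head genes (92.3%), in 47 of 64 genes arranged otherwise (73.4%) and in 81 of 103 partners (78.6%). It was at least 0.6 in 53.1% of 275 windows of the antisense genes below the limit and in 49.0% of all 27305 RefSeq windows. The window next in antisense level after those printed, that of *MAPKAPK5-AS1*, had a ratio of 0.534 and a GC content of 50%. Neither GGGCGG nor CCAAT occurred in it on either strand. GGGCGG on either strand was present in 68 of the 105 (64.8%). It was present in 68.9% of the partners, 50.9% of the antisense genes below the limit and 44.6% of all windows. CCAAT on either strand was present in 31.4%, against 37.9%, 30.2% and 35.7% in the same order. TATAAA on either strand was present in 6.67%, against 7.77%, 8.73% and 11.95%. A match is a description of letters and not a binding site.

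**Figure D4:**
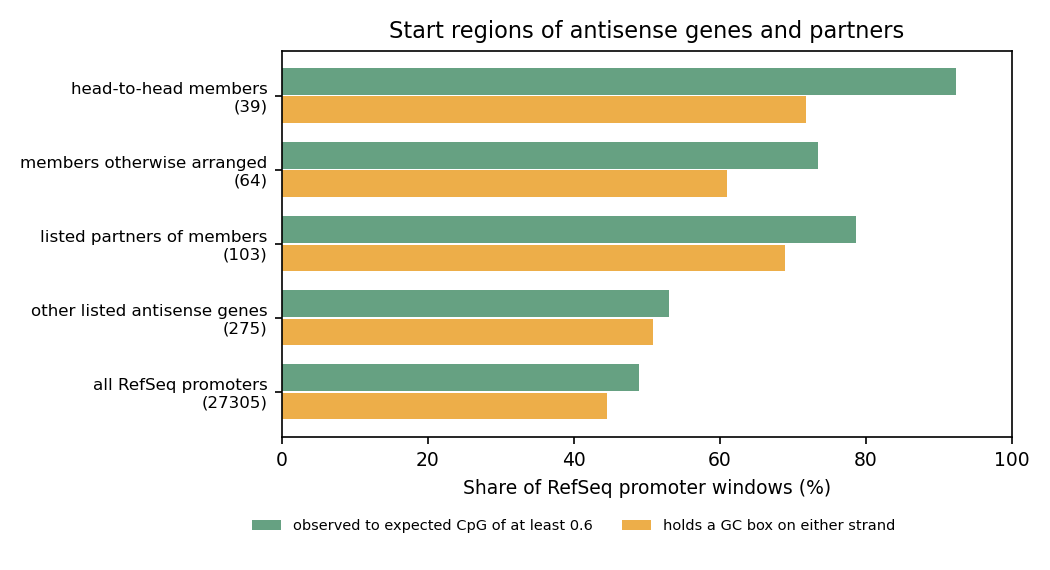
Share of RefSeq promoter windows of 300 bases (horizontal axis, %) with an observed to expected CpG ratio of at least 0.6 (green) and with a GC box, GGGCGG on either strand (orange). The number of windows stands under each name, and the green bar is 92.3% for the head-to-head genes and 49.0% for all windows.

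Antisense genes of transcription factors of the pancreas and endoderm were described as a group. From a list of such factors and linked genes, 8 antisense genes are listed and 6 of them reached 100, among them *GATA6-AS1*, *SOX9-AS1*, *PROX1-AS1*, *MNX1-AS1* and *MNX1-AS2*. *HNF4A-AS1* (6.19) and *MEIS1-AS2* (21.8) were below it although *HNF4A* (4422) and *MEIS1* (5629) were abundant. *GATA6-AS1* (chromosome 18, 22164886 to 22169878) had a mean normalized count of 881 and 268 per kb, 5.11-fold below *GATA6*, which is required for pancreas formation. The GENCODE starts of both genes are 289 bases apart, and 2.86% of the exon bases of *GATA6-AS1* are shared with *GATA6*.

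*SOX9-AS1* (chromosome 17, 72067099 to 72237203) had 549 against 20672 for *SOX9*, a factor that maintains pancreatic progenitors. It spans *SOX9* with no exon base inside it, so that reads of *SOX9* do not fall on its exons in this annotation. *PROX1-AS1* (chromosome 1, 213817751 to 213988508) had 309 and stood 23.0-fold below *PROX1* per kb. The pair at *MNX1*, a homeobox gene of pancreas and motor neurons, had similar counts of 188 for *MNX1-AS1* and 179 for *MNX1-AS2*. *MNX1-AS1* (chromosome 7, 157010805 to 157016426) starts 142 bases upstream of *MNX1* and runs away from it, while *MNX1-AS2* (157006307 to 157007132) lies in an intron of *MNX1*, whose mean normalized count was 5110. Its 374 exon bases gave it 478 per kb, 2.54-fold below *MNX1*, and how many of its reads came from unspliced *MNX1* RNA was not tested.

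Antisense genes of zinc finger genes formed the largest list, with 14 genes at 100 or more of 31 listed (45.2%), against 26.3% of all antisense genes. Their median was 77.6 normalized counts per kb, and their partners, which encode proteins of a large DNA-binding family, exceeded them by a median of 1.91-fold, with 3 of 14 pairs led by the antisense gene, *ZNF407-AS1*, *ZNF793-AS1* and *ZNF674-AS1*. Per kb of longest transcript *ZNF667-AS1* and *ZEB1-AS1* were also above the partner, which made it 5 of 14. Of the 14 genes, 6 lie on chromosome 19 and 6 were head to head with the partner. *ZNF667-AS1* had 1058 against 871 for *ZNF667*, which put the partner 1.14-fold higher per kb of exon and the antisense gene 1.14-fold higher per kb of longest transcript. *ZNF528-AS1* had 785 against 1691 for *ZNF528*, and *ZNF407-AS1* had 605 against 841, which per kb of exon put the antisense gene 1.62-fold higher. *ZEB1-AS1* (123), beside the gene of a factor that drives epithelial to mesenchymal transition, was within 1.03-fold of *ZEB1* per kb of exon. The lists were drawn up with earlier results of these data known, and nothing particular to the list is read from these shares.

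Among genes with a partner of the cytoskeleton, adhesion or matrix, 7 of 24 listed antisense genes reached 100. *KRT10-AS1* had 561, *LOXL1-AS1* 358, *ITGA9-AS1* 206, *TTN-AS1* 106 and *ITGB8-AS1* 100.02. The list took genes by the first letters of the partner and so also holds *MAPKAPK5-AS1* (783), whose partner encodes a protein kinase. *ITGA9* and *ITGB8* encode integrin subunits, with mean normalized counts of 149 and 4457, and stood 1.69-fold and 2.76-fold above their antisense genes per kb. Per kb of longest transcript *ITGA9-AS1* was instead 2.77-fold above *ITGA9*. *TTN-AS1* faces *TTN*, the titin gene, with 4179, and shares 55.1% of its exon bases with other genes, so that its count is uncertain. *MRPL20-AS1* (1205), opposite a mitochondrial ribosomal protein gene, was the single mitochondrial entry of 8 listed. Among genes of replication, RNA and chromatin, *MCM3AP-AS1* (260), *RBM26-AS1* (205) and *HDAC2-AS2* (111) were 3 of 11 listed, with partners 18.2, 16.7 and 80.7 times higher per kb. Per kb of longest transcript these partners were 8.73, 22.7 and 29.0 times higher. Of 2 listed antisense genes of HOX genes, 0 reached 100.

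The 13 antisense genes within the partner had all their exon bases opposite its exons or introns. *DPP10-AS1* had 578 against 6605 for *DPP10*, a gene of the dipeptidyl peptidase family, and lies wholly in its introns. *SRGAP3-AS2* (187), *SCTR-AS1* (142), *FGF14-AS2* (139) and *SCOC-AS1* (126) were also in introns only. *SCTR* encodes the secretin receptor and stood 21.6-fold above *SCTR-AS1* per kb, whereas *FGF14-AS2*, at 127 per kb, stood above *FGF14*. *EGFR-AS1* (126) lies within *EGFR*, the epidermal growth factor receptor gene, which had 19845 and exceeded it by 28.2-fold per kb. *UBE2D3-AS1* (106) shares 39.7% of its exon bases with *UBE2D3*, a ubiquitin-conjugating enzyme gene, and *ZNF529-AS1* (203) shares 46.7% with *ZNF529*. For these genes, levels with and without strand could not be compared here.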

How the data were processed

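RNA of 18 samples was sequenced after poly(A) selection. According to the methods and the submitters' processing notes, the authors aligned reads with STAR 2.7.2d to GRCh38 with an older GENCODE annotation, counted reads per gene and normalized them with DESeq2 1.34.0. The column used is a signal that the authors deposited: the mean over all samples of counts divided by size factors, not per length. It was the same at the 3 times, with a largest relative gap of 4.89e-07. The other columns hold the authors' own log2 fold changes, errors and p-values for LN411 against FN and were not used. The number of unmatched sample columns was 0.

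Gene models of GENCODE 44 on GRCh38 were matched by Ensembl identifier for 21861 of 21944 genes. Levels were divided by the union of exons in kb. For the alternative of unshared exon bases, genes with fewer than 200 such bases were left out. Head-to-head pairs have starts within 1000 bases. Promoters are RefSeq windows. A few genes are left out of the text. No test was made, because replicate values were not analysed here. Overlap and arrangement functions were tested on made-up gene models. Genes and lists were chosen with earlier results of these data known. Genes named in the text are those highest in level or per kb, those highest and lowest against the partner, those of the lists, and those next to the limit, and others, chosen after their values were seen, serve as examples of their arrangement. Calculations used Python 3.11.15, pandas 2.3.3, numpy 2.4.6, scipy 1.17.1 and matplotlib 3.10.9.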

Additional observations from a re-analysis of the deposited data

How the results depend on the processing

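No paired analysis was possible because values of single samples were not analysed, and for the same reason no sample was left out in turn. A limit of 50 in place of 100 gave 210 antisense genes and 201 pairs, and a limit of 200 gave 77 and 75. With a limit of 200 the median partner excess fell to 3.26-fold. Under the other alternatives it lay between 4.41 and 7.43-fold. The number of pairs led by the antisense gene lay between 21 and 25 over the 3 alternatives of length, and was not counted under the others. Spearman's rank correlation of antisense and partner levels was -0.15 per kb of longest transcript, -0.24 without division by length, 0.043 per kb of unshared exon, 0.034 and 0.029 with limits of 50 and 200, and, as alternatives chosen after seeing the data, -0.14 in pairs with no antisense exon base within the partner and 0.0016 in pairs with no shared exon base. Its sign is not interpretable, and the cause of these shifts was not tested. Starts within 500 bases gave 29 head-to-head pairs, and within 2000 bases 59. Exon lengths come from a later annotation than the one used for counting, and the depth of each library, which limits the precision of low genes, is unknown.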
